A study of Mus musculus with 10 samples.

Results

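The stearoyl-CoA desaturases are enzymes of the endoplasmic reticulum that put the first double bond into saturated fatty acyl chains. They turn stearate and palmitate into oleate and palmitoleate, the main fatty acids of stored triglyceride, with electrons passed on by cytochrome b5 and its reductase. The mouse has a cluster of such genes. Scd1 is the main form of fat and liver and is known as a target of SREBP1c, LXR and dietary fat. Scd2 is known from brain and from developing fat and skin, Scd3 from sebaceous glands and the Harderian gland, and Scd4 from heart.

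The family was taken as the rows named Scd1, Scd2, Scd3 and Scd4, which gave 4 of 32889 genes, and all 4 passed the filter on low counts that left 19676 genes to test. Brown adipose tissue of wild-type C57BL/6J mice was sequenced in 10 libraries of total RNA. The 4 control libraries came from mice on regular chow, and the 3 obesity-resistant and 3 obesity-prone libraries from mice on a high-fat diet. How mice were called prone or resistant, their age and sex, the time on the diet and whether each library is a separate animal are not given in the sources used here, and p-values here reflect how far the samples differ and may hold technical spread alone. The libraries held 35583997 to 37327770 expected counts. Ucp1, the thermogenic protein of brown fat, lay between 2882 and 10271 CPM (counts scaled to a common library size with TMM factors). The 10 brown adipocyte markers were all found and summed to 9031 to 12755 CPM in control, 11575 to 12626 in obesity-resistant and 4292 to 10975 in obesity-prone libraries, and 7 erythrocyte markers to at most 6160, 2548 and 22214 CPM.

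The members were chosen by their names with the measured difference between obesity-prone and control libraries in view, in which Scd3 was high and Scd1 was not. Their levels and fold changes in comparisons with the obesity-prone libraries are therefore a description, with no test. The obesity-resistant libraries did not enter that choice but the controls did, and adjusted p-values are given for that comparison alone. In whole tissue, fewer cells of a type and less RNA per cell cannot be told apart.

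The 4 genes lie within 204 kb of chromosome 19 (44203288 to 44407709, RefSeq on GRCm38.p6), and each has 6 exons in its longest coding transcript. Scd3 (identifier 30049) spans 44203288 to 44244016, Scd2 (20250) 44293676 to 44306864 and Scd4 (329065) 44333326 to 44346743, all on the plus strand, and Scd1 (20249) spans 44394450 to 44407709 on the minus strand. RefSeq places no other protein-coding gene wholly between them, but Pkd2l1, described below, runs across Scd3 and past its end. The coding sequences were alike, which matters because reads from a shared stretch have to be split among the genes. In an alignment of the GENCODE M21 coding sequences, Scd1 and Scd3 were identical at 91.5% of 1065 bases, Scd1 and Scd2 at 90.3%, and Scd1 and Scd4 at 85.1% of 1050 bases. The most alike stretch of 60 bases, bases 586 to 645 of the Scd1 coding sequence, was the same in all 4 genes, and a read within it fits each of them:
All 4 genes: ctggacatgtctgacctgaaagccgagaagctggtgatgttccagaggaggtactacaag

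The least alike stretch of 60 bases, from base 295 of the Scd1 coding sequence, differed at 31 positions among the 4 genes. It shows what a read needs to be told apart, with capitals for bases that differ from Scd1, 10 in Scd2, 18 in Scd3 and 17 in Scd4:
Scd1: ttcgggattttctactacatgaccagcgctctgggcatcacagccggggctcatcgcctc
Scd2: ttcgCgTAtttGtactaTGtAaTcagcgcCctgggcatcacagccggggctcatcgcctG
Scd3: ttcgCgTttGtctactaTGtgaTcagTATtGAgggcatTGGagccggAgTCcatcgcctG
Scd4: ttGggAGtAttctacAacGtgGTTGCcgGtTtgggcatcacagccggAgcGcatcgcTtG

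Most of each transcript was its own. Of the stretches of 100 bases in the longest coding transcript, 2.66% in Scd1, 0.9% in Scd2, 2.54% in Scd3 and 0.53% in Scd4 occurred in a transcript of another gene. At 50 bases the shares were 4.66%, 4.01%, 6.66% and 6.32%. AC123853.3, which GENCODE gives as a pseudogene in the cluster, shared stretches of 50 bases with all 4 genes. RefSeq also places Pkd2l1, a calcium channel gene, from 44147637 to 44248328 on the minus strand, across Scd3. The level of Pkd2l1 was 0.302 to 1.08 CPM over the control samples, 0.349 to 0.523 CPM over the obesity-resistant samples and 0.517 to 1.12 CPM over the obesity-prone samples. No strand setting is stated, so reads of Scd3 and an overlapping gene on the other strand cannot be told apart.

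Promoter sequences of 2 members, Scd3 and Scd4, were at hand from RefSeq (GRCm38.p6), and the 250 bases before the start of each are shown because Scd3 was the member whose level differed most between the diets. Capitals mark the searched motifs that were found, CANNTG (the E-box) and TTTAAA, on either strand:
Scd3, chr19:44203038-44203287, plus strand: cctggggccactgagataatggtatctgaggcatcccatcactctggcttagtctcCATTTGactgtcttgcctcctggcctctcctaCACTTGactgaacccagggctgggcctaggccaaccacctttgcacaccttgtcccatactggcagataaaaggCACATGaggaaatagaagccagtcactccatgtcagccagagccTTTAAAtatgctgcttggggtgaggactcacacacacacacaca
Scd4, chr19:44333076-44333325, plus strand: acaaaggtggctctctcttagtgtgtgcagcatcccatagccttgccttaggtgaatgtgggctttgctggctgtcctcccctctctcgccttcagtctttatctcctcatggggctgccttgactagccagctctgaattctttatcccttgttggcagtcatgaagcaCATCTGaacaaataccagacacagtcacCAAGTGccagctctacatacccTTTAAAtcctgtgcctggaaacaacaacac

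CANNTG occurred 3 times before Scd3 and 2 times before Scd4, and in 66.2% of the 32851 promoters of the same length. TTTAAA occurred once before each and in 12.1% of promoters. The TATA box TATAAA was in neither window and in 12.4% of promoters. Nor was CCAAT, found in 33.8% of promoters, the GC box GGGCGG in 32.7%, or the sterol regulatory element TCACNCCAC in 1.05%. A repeat of AGGTCA with any 1 base between its copies, the PPAR element, was in neither and in 0.0335% of promoters. None of the motifs found overlapped another. The starts are RefSeq's. GENCODE begins the transcripts of Scd3 at 44203269 and of Scd4 at 44333092, inside the windows shown. By GENCODE the marked motifs of Scd4 lie after the start, and those of Scd3 before it.

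Scd1, the main desaturase of fat, held nearly all of the family's expression. Its expected counts were 98.7% to 99.6% of the family's sum in every library, and 0.176% to 1.56% of all counts of a library. On the FPKM scale, which is per length, control replicates 1 to 4 stood at 2873, 1027, 3103 and 949. Obesity-resistant replicates 1 to 3 stood at 479.7, 365 and 1064, and obesity-prone replicates 1 to 3 at 2354, 1984 and 3237. The controls thus fell into a high and a low pair. On this scale obesity-prone replicates 1 and 2 lay between the pairs and replicate 3 above every control. Obesity-resistant replicates 1 and 2 lay below every control.

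The mean FPKM of Scd1 was 1988 ± 1159 (SD, n = 4) in control, 636 ± 375 (n = 3) in obesity-resistant and 2525 ± 644 (n = 3) in obesity-prone libraries. Obesity-resistant and control libraries overlapped, and the log2 fold change was -1.71 ± 0.54 (SE, edgeR adjusted p = 0.145). Obesity-prone and control libraries overlapped as well, at a log2 fold change of 0.25 ± 0.51. Between the diet groups there was no overlap, with obesity-prone libraries higher by 1.96 ± 0.56 on the log2 scale.

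Scd2, the form known from developing fat, was next in the order of levels and far below Scd1. In control replicates 1 to 4 it stood at 17.06, 8.68, 15.2 and 7.50 FPKM, high in the same pair of libraries as Scd1. It stood at 3.36, 3.86 and 4.06 FPKM in obesity-resistant replicates 1 to 3, all below every control. In obesity-prone replicates 1 to 3 it stood at 7.67, 5.80 and 19.98 FPKM, so that replicate 3 alone lay above the controls.

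The mean FPKM of Scd2 was 12.1 ± 4.74 (SD, n = 4) in control, 3.76 ± 0.361 (n = 3) in obesity-resistant and 11.2 ± 7.70 (n = 3) in obesity-prone libraries. Obesity-resistant libraries were lower than control by 3.38 times in mean CPM, at a log2 fold change of -1.76 ± 0.44 (SE, edgeR adjusted p = 0.101). They were also lower than obesity-prone libraries without overlap, at a log2 difference of 1.54 ± 0.46 for obesity-prone minus obesity-resistant. Obesity-prone and control libraries overlapped, with a log2 fold change of -0.22 ± 0.42, and without obesity-prone replicate 3 it was -0.92. In that library the summed CPM of 8 white adipocyte markers found was 1664, against 315 to 797 in the other obesity-prone and 196 to 366 in control libraries. The 12 progenitor and fibroblast markers summed to 1972 CPM there, against 905 to 1223 and 661 to 1113. The part of these cell types in the level of Scd2 was not tested.

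In obesity-resistant and control libraries, deviations of same-numbered replicates correlated weakly (r from 0.121 to 0.187). Pairs with different numbers ran from -0.331 to 0.254, so that a pairing by number is not established. With the replicate number as a block the fold changes of Scd1 and Scd2 passed the threshold in obesity-resistant against control libraries. They were -1.97 for Scd1 (edgeR adjusted p = 0.0376) and -1.88 for Scd2 (adjusted p = 0.0419). Only the controls have a replicate 4, so in the blocked fit that library does not enter the fold changes between groups. DESeq2 called Scd1, Scd2 and Scd3 in this comparison (adjusted p = 0.0485, 0.00109 and 0.00365). Without control replicate 4 the edgeR fit called Scd2 at -1.94 and Scd3 at 3.65, and without obesity-prone replicate 3 it called Scd2 at -1.76. With all libraries it called 0 of the 4 members, against 0.142% of all genes tested (0.0966% higher and 0.0457% lower). DESeq2 called 1138 genes there.

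Scd3, the form known from sebaceous glands, had few reads in chow-fed mice and more on the high-fat diet. Control replicates 1 to 4 held 3.01, 6.03, 6.04 and 23.59 expected counts, which is 0.02, 0.05, 0.05 and 0.19 FPKM. Obesity-resistant replicates 1 to 3 held 17.13, 83.89 and 100.56 expected counts, which is 0.14, 0.69 and 0.81 FPKM. Obesity-prone replicates 1 to 3 held 231.13, 79.62 and 184.48 expected counts, which is 1.80, 0.62 and 1.47 FPKM. All obesity-prone libraries lay above all controls, and obesity-resistant replicate 1 lay below control replicate 4.

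The mean FPKM of Scd3 was 0.0775 ± 0.0763 (SD, n = 4) in control, 0.547 ± 0.357 (n = 3) in obesity-resistant and 1.30 ± 0.609 (n = 3) in obesity-prone libraries. Mean CPM was 16.3 times higher in obesity-prone and 6.88 times higher in obesity-resistant than in control libraries. The log2 fold changes were 3.98 ± 0.71 (SE) and 2.75 ± 0.71, and the second had an edgeR adjusted p of 0.105. Obesity-prone and obesity-resistant libraries overlapped, at a log2 difference of 1.24 ± 0.66. Both high-fat diet comparisons share the 4 control libraries. The low control counts leave the fold against control imprecise, and without control replicate 4 it was 4.89 for obesity-prone libraries.

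The 12 sebaceous and skin markers found of 14 summed to 8.50 to 14.1 CPM in control, 10.9 to 14.9 in obesity-resistant and 13.1 to 15.7 in obesity-prone libraries. Krt5 and Krt14, the keratins of basal epidermis, stayed at or below 0.195 CPM in every library, and Krt1 was at 0 in 3 of 4 control, 1 of 3 obesity-resistant and 2 of 3 obesity-prone libraries. Other members were higher. Krt79, a keratin of sebaceous ducts, lay at 4.58 to 6.21 CPM in control, 3.20 to 4.80 in obesity-resistant and 5.11 to 11.1 in obesity-prone libraries. Elovl4, an elongase of very long acyl chains, lay at 0.503 to 1.40, 2.26 to 6.09 and 0.447 to 4.81 CPM. The part of these cells in the level of Scd3 was not tested. The sums of 12 macrophage markers and of the white adipocyte markers were 147 to 254 and 196 to 366 CPM in the controls and 209 to 590 and 315 to 1664 CPM in obesity-prone libraries. In obesity-resistant libraries they were 146 to 176 and 289 to 361 CPM. Members of the white adipocyte list differed from each other. Lep lay at 6.31 to 22.2 CPM in control and 23.8 to 395 in obesity-prone libraries, whereas Retn averaged 49.9 and 19.3 CPM. The part of macrophages and white adipocytes in the level of Scd3 was not tested either.

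The level of Scd3 did not follow that of Scd1, the gene nearest to it in coding sequence. Scd1 had its highest control levels in replicates 1 and 3, where Scd3 held 3.01 and 6.04 expected counts. Scd1 was lowest in obesity-resistant replicate 2, where Scd3 held 83.89 expected counts. Over the 10 libraries Pearson's r of log2 CPM was -0.06 between Scd1 and Scd3 (Spearman's rho -0.13), given as a description.

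Scd4, the form known from heart, was near the lower end of detection. It held 17.62 to 36.46 expected counts in control, 13.07 to 25.82 in obesity-resistant and 16.78 to 18.98 in obesity-prone libraries. Its mean FPKM was 0.255 ± 0.0714 (SD, n = 4), 0.193 ± 0.0635 (n = 3) and 0.157 ± 0.0115 (n = 3). The groups overlapped in all 3 comparisons, with log2 fold changes of -0.75 ± 0.32 (SE) for obesity-prone and -0.43 ± 0.32 for obesity-resistant against control libraries (edgeR adjusted p = 0.51 for the second). Of 8 heart muscle markers 7 were found, and Myl7, Nppb and Tnnt2 were at 0 in all 4 control libraries, whereas Myh6 and Actc1 were above 0 in each. Myl4, a myosin light chain of the atrium, lay at 1.202 to 2.84 CPM in control, 3.14 to 3.54 in obesity-resistant and 3.86 to 5.47 in obesity-prone libraries. Actc1 went the other way, at 0.290 to 0.559, 0 to 0.137 and 0.0526 to 0.258 CPM in the same groups. Myh6 lay at 0.0268 to 0.269, 0.0278 to 0.188 and 0 to 0.0544 CPM.

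**Figure D1:**
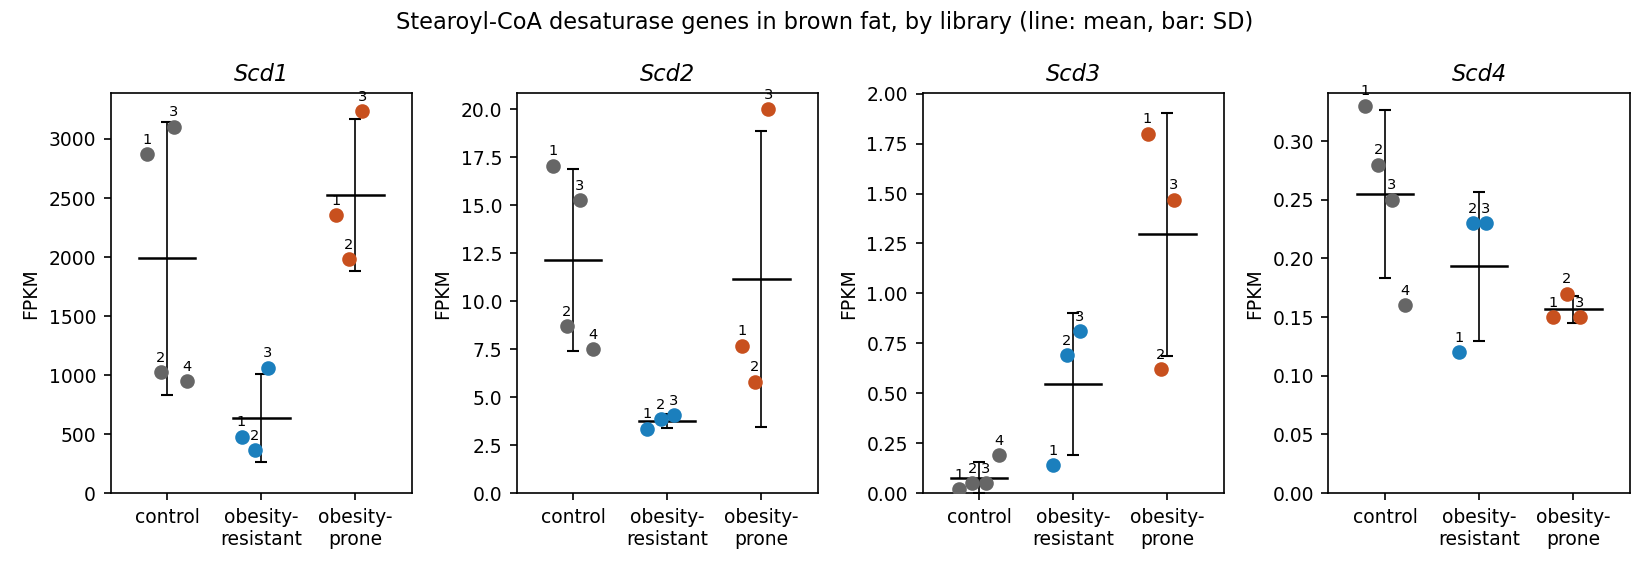
FPKM of Scd1, Scd2, Scd3 and Scd4 in each library (points, with the replicate number), by group, with the mean (line) and SD (bar). Scd1 and Scd2 were lowest in obesity-resistant libraries, where Scd2 stayed between 3.36 and 4.06, whereas Scd3 stayed at or below 0.19 in control and reached 1.80 in obesity-prone libraries.

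The order of levels was Scd1, then Scd2, in every library. Scd3 and Scd4 came after them and changed places. Scd4 was above Scd3 on the FPKM scale in control replicates 1 to 3, and Scd3 was above Scd4 in 1 of 4 control, 3 of 3 obesity-resistant and 3 of 3 obesity-prone libraries. In control and in obesity-resistant libraries the ranges of Scd3 and Scd4 overlapped, and in obesity-prone libraries they did not (0.62 to 1.80 against 0.15 to 0.17 FPKM). Scd3 never held more than 0.186% of the family's summed FPKM, so that the summed level was that of Scd1.

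In CPM, the groups did not overlap for 1 of 4 members in obesity-prone against control (Scd3), 1 of 4 in obesity-resistant against control (Scd2) and 2 of 4 in obesity-prone against obesity-resistant libraries (Scd1 and Scd2). Over all genes tested the groups did not overlap for 20.3% (9.68% higher and 10.6% lower), 20.1% (10.4% and 9.69%) and 19.7% (9.97% and 9.76%) in the same comparisons. With 4 members these counts are a description, and for obesity-prone libraries the choice of members used them.

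**Figure D2:**
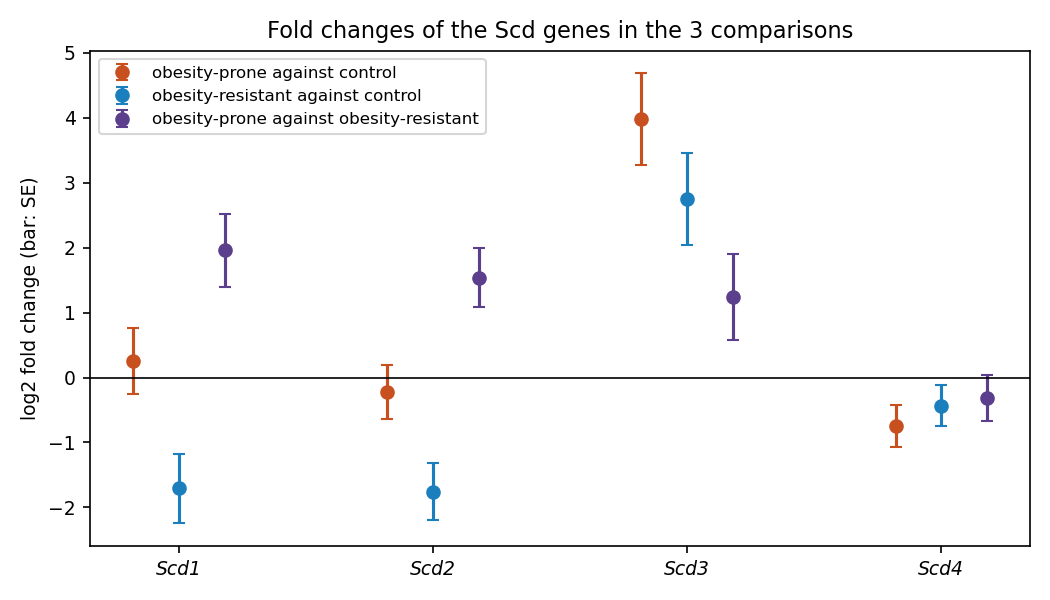
Log2 fold changes (points) with standard errors (bars) of the 4 genes in the 3 comparisons, from the edgeR fit over all genes. Scd3 was above 0 against control for both diet groups (3.98 and 2.75), and Scd1 and Scd2 were at -1.71 and -1.76 for obesity-resistant and at 0.25 and -0.22 for obesity-prone libraries.

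Scd1 and Scd2 varied together over the libraries. Pearson's r of log2 CPM was 0.84 and Spearman's rho 0.87 over 10 libraries, r was 0.74 without obesity-resistant replicates 1 and 2, and r of the deviations from the group means was 0.71. The ratio of Scd1 to Scd2 in FPKM was 118 to 204 in control, 94.6 to 262 in obesity-resistant and 162 to 342 in obesity-prone libraries. Scd4 had r of 0.21 with Scd1 and -0.59 with Scd3. These values are a description of libraries that share groups.

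**Figure D3:**
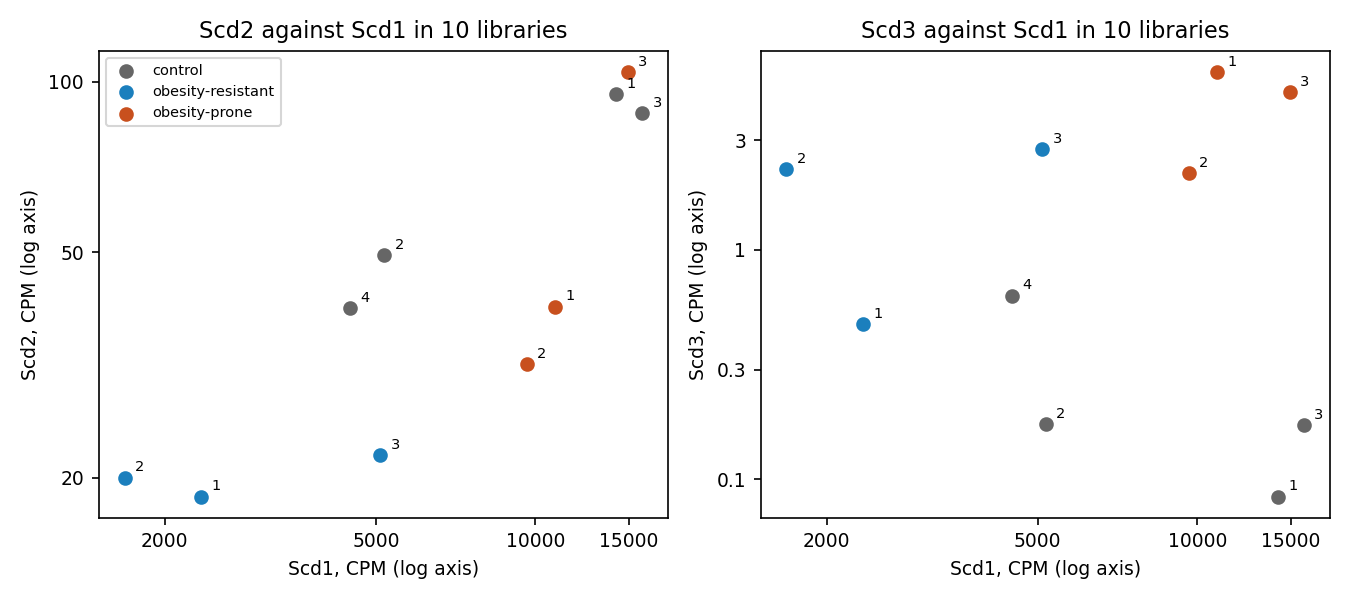
Scd2 (left) and Scd3 (right) against Scd1 in CPM on log axes, 1 point per library with its replicate number, by group. Scd2 followed Scd1 (r = 0.84), and Scd3 did not (r = -0.06), with control replicates 1 and 3 at the lower right.

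The genes most like each member were sought among 12478 other named protein-coding genes of at least 1 CPM (12479 for Scd4), by Pearson's r of log2 CPM over 10 libraries. For Scd1 they were Tlr5 (the flagellin receptor, r = 0.97), Tspan17, Phka2 (a subunit of phosphorylase kinase), Mmd and Kdsr (an enzyme of sphingolipid synthesis), with r of at least 0.93. For Scd2 they were Mgst3 (a microsomal glutathione transferase), Gnptab, Blvrb, Vim (vimentin, a filament protein of mesenchymal cells) and Smoc1, with r from 0.97 to 0.98. For Scd3 they included Optn (an autophagy receptor), Slc25a30 (a mitochondrial carrier), Tnfaip8l1 and Ifit2 (an interferon-induced gene), with r from 0.96 to 0.98. For Scd4 they were Tmem25, Akr1e1, 2810006K23Rik, Fn3krp and Pxmp4, with r from 0.93 to 0.95. No member was among the genes named for another. These are the highest of many values over 10 libraries that share groups, and no p is attached to them.

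The desaturases work between enzymes that make saturated acyl chains and enzymes that store the product, and 6 lists with 88 genes in all were examined around them. In obesity-prone against control libraries 5 of 86 genes tested rose and 6 fell, which is 12.8%, against 7% of all genes tested, 3.71% higher and 3.29% lower (edgeR, adjusted p below 0.05). An unadjusted p below 0.05 was found for 38 of 86, and for 5537 of all 19676 genes. The count changed with the libraries. It was 3, 4, 1 and 25 without control replicates 1 to 4, beside 1.31%, 1.3%, 0.389% and 15.6% of all genes. It was 4, 15 and 6 without obesity-prone replicates 1 to 3, beside 2.52%, 10.8% and 2.67%. Without obesity-resistant replicates 1 to 3, which enter through the shared estimate of spread, it was 8, 5 and 8, beside 3.75%, 2.91% and 3.52%. The share over all genes thus moved with the count.

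Of the genes that supply the substrate, 3 of 14 were called lower and none higher, at a median log2 fold change of -0.59 against 0.0047 over all genes. Acly, ATP citrate lyase, stood at 932, 382, 1147 and 259 CPM in control replicates 1 to 4 and at 160.4, 155 and 131 CPM in obesity-prone replicates 1 to 3, with no overlap (log2 fold change -2.19 ± 0.46, adjusted p = 0.0271). Acaca, the acetyl-CoA carboxylase of fatty acid synthesis, had a log2 fold change of -1.84 ± 0.47 (adjusted p = 0.0462). Thrsp, a lipogenic regulator, had -2.28 ± 0.49 (adjusted p = 0.0299). The control libraries high and low in Acly were those high and low in Scd1. Leaving out 1 library at a time ended the call of Acaca in 9 of 10 cases (all but control replicate 4). It ended that of Acly without control replicates 1 and 3 and obesity-prone replicates 1 and 3, and that of Thrsp without these 4, control replicate 2 or obesity-resistant replicate 2. Acly, Acaca and Thrsp were not called without the filter on low counts or in the fit of only the 2 groups compared. By limma on FPKM Acaca was not called either.

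Scd1 was high against Acly, Acaca and Thrsp in obesity-prone libraries. This restates that these genes were called lower in the same libraries while Scd1 was known not to fall there. Its ratio to Acly, in FPKM, was 13.9, 12.7, 12.7 and 16.3 in control replicates 1 to 4 and 66.5, 61.5 and 112 in obesity-prone replicates 1 to 3. The controls were close to each other although both genes varied several times over among them, and every obesity-prone library lay above all of them. In obesity-resistant replicates 1 to 3 the ratio was 14.0, 12.3 and 31.8, with 2 libraries within or near the control range. Acly was as low in obesity-resistant as in obesity-prone libraries, at 29.7 to 34.4 against 28.8 to 35.4 FPKM. Scd1 was lower in obesity-resistant libraries, at 365 to 1064 against 1984 to 3237 FPKM.

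The ratio of Scd1 to Acaca was 11.5 to 15.07 in control, 7.82 to 23.99 in obesity-resistant and 39.0 to 69.995 in obesity-prone libraries. For Thrsp it was 2.25 to 4.46, 2.25 to 6.00 and 12.4 to 49.0. For Fasn, the fatty acid synthase, which was added after its values were seen, it was 3.32 to 7.04, 4.85 to 10.9 and 11.9 to 24.7. The same ratio was computed for 3 more genes, and there the obesity-prone and control libraries overlapped. For Elovl6 it was 13.9 to 32.3 in control and 31.99 to 190.5 in obesity-prone libraries, for Srebf1 18.3 to 42.5 and 41.7 to 60.5, and for Dgat2, which makes triglyceride, 1.68 to 4.20 and 3.90 to 6.999. Since Scd1 entered the choice of members, and Acly, Acaca and Thrsp were called lower in these same libraries, these ratios are a description. The part of cell types in them was not tested.

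**Figure D4:**
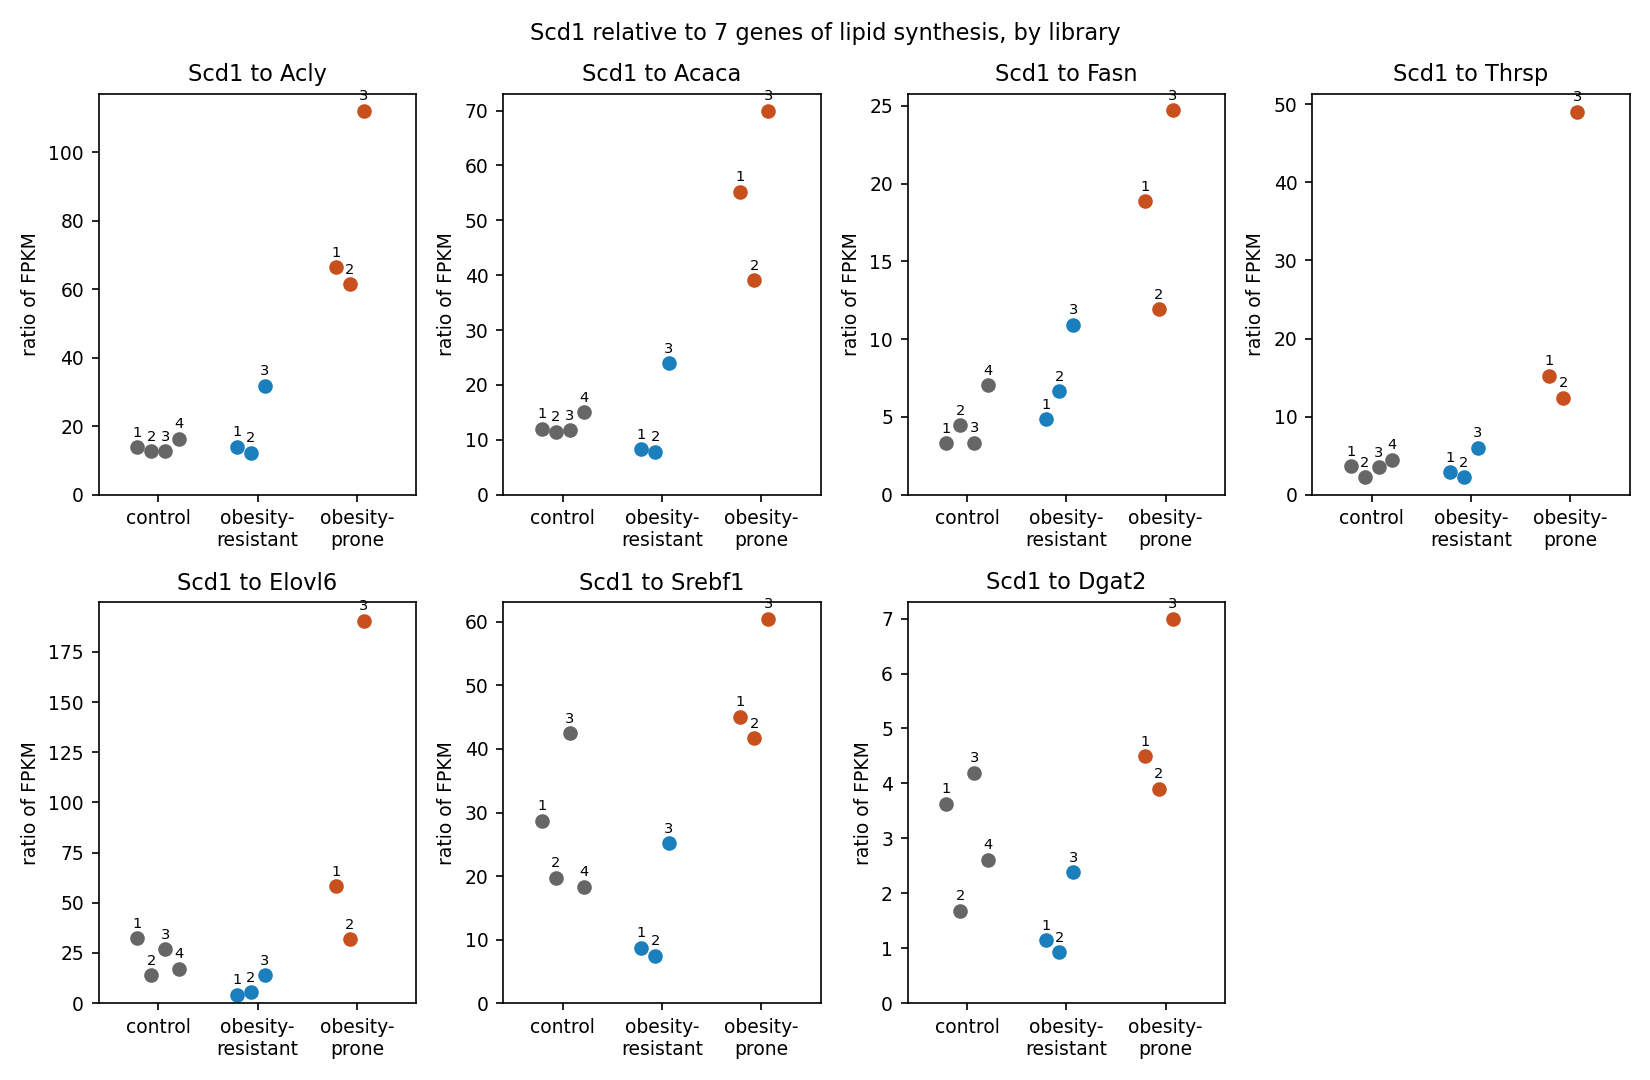
Ratio of Scd1 to Acly, Acaca, Fasn, Thrsp, Elovl6, Srebf1 and Dgat2 in FPKM in each library (points, with the replicate number), by group, each axis starting at 0. For the first 4 genes the obesity-prone libraries lay above all others, for Acly at 61.5 to 112 against 12.3 to 31.8 elsewhere, and for Elovl6, Srebf1 and Dgat2 they overlapped with control.

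Of the electron donors, 1 of 6 was called. Cyb5a, the cytochrome b5 that passes electrons to the desaturases, fell from 77.9 ± 14.6 CPM (SD, n = 4) in control to 44.9 ± 8.18 (n = 3) in obesity-prone libraries (log2 fold change -0.80 ± 0.17, edgeR adjusted p = 0.0282). It stood at 85.6, 75.7, 91.96 and 58.5 CPM in control replicates 1 to 4 and at 42.3, 38.3 and 54.03 CPM in obesity-prone replicates 1 to 3, with no overlap. In obesity-resistant libraries it stood at 35.4, 38.7 and 44.3 CPM (adjusted p = 0.0532). The call for obesity-prone libraries ended without control replicate 1, 2 or 3, obesity-prone replicate 1 or obesity-resistant replicate 2. It also ended in the fit of only the 2 groups compared.

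Of the other desaturases, 1 of 6 was called. Fads3, a member of the fatty acid desaturase family that acts on sphingoid bases, rose from 23.8 ± 4.05 CPM (SD, n = 4) in control to 79.7 ± 55.6 (n = 3) in obesity-prone libraries (log2 fold change 1.74 ± 0.40, edgeR adjusted p = 0.0341). Its obesity-prone replicates stood at 68.5, 30.6 and 140.1 CPM, all above the highest control at 28.6. Without obesity-prone replicate 3 the log2 fold change was 1.06 and the call ended, as it did without control replicates 1, 2 and 3, without obesity-prone replicate 1 and without obesity-resistant replicates 1 and 2. With the replicate block Fads3 was not called either. Nor was it called without the filter on low counts, in the fit of only the 2 groups compared or by limma on FPKM. It kept the call in 7 of 21 alternatives. None of 12 elongation genes was called, which does not show that they were unchanged. Elovl6, the elongase of palmitate, stood at 442 ± 156 CPM in the controls and 208 ± 126 in obesity-prone libraries. Its log2 fold change was -1.09 ± 0.44 (edgeR adjusted p = 0.139). Hacd2 stood at 214 ± 30.7 and 179 ± 64.1 CPM in the same groups.

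Among the regulators 2 of 26 were called higher and none lower, and this share of 7.69% is near the 7% over all genes. Srebf2, the sterol-responsive factor of cholesterol synthesis, stood at 47.9, 41.7, 46.9 and 49.4 CPM in the controls and at 67.3, 69.3 and 66.96 CPM in the obesity-prone replicates (log2 fold change 0.55 ± 0.09, edgeR adjusted p = 0.0179). Nfya, a subunit of the CCAAT-binding factor, had 0.41 ± 0.10 (adjusted p = 0.046). The call of Srebf2 ended without control replicate 3, and that of Nfya without any library but control replicate 4. Both ended in the fit of only the 2 groups compared. That of Nfya also ended without the filter on low counts and by limma on FPKM. Srebf1, which encodes the SREBP1c that acts on Scd1 and is named here outside the rule, stood at 282 ± 95.9 CPM (SD, n = 4) in the controls and 197 ± 4.64 (n = 3) in obesity-prone libraries (adjusted p = 0.165).

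Of the genes of glycerolipid synthesis, 2 of 22 were called higher and 2 lower. Lpin2, a phosphatidate phosphatase, stood at 16.7, 18.3, 15.8 and 20.7 CPM in the controls and at 35.8, 33.7 and 36.9 CPM in the obesity-prone replicates (log2 fold change 0.99 ± 0.11, edgeR adjusted p = 0.0041). It was called in all 21 alternatives. Lpin3, of the same family, rose by 0.78 ± 0.19 (adjusted p = 0.0385), and lost the call with the replicate block and in 7 of 10 fits without 1 library, keeping it without control replicate 4, obesity-resistant replicate 1 or obesity-prone replicate 2. Dgat1, which makes triglyceride, fell from 215 ± 15.9 to 128 ± 16.0 CPM (adjusted p = 0.0148), and Gpat4, a glycerol-phosphate acyltransferase, from 461 ± 76.9 to 208 ± 63.3 CPM (adjusted p = 0.0207). Without control replicate 3 neither was called, and without control replicates 1 or 2 Gpat4 was not. In the fit of only the 2 groups compared Lpin3, Dgat1 and Gpat4 were not called.

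**Figure D5:**
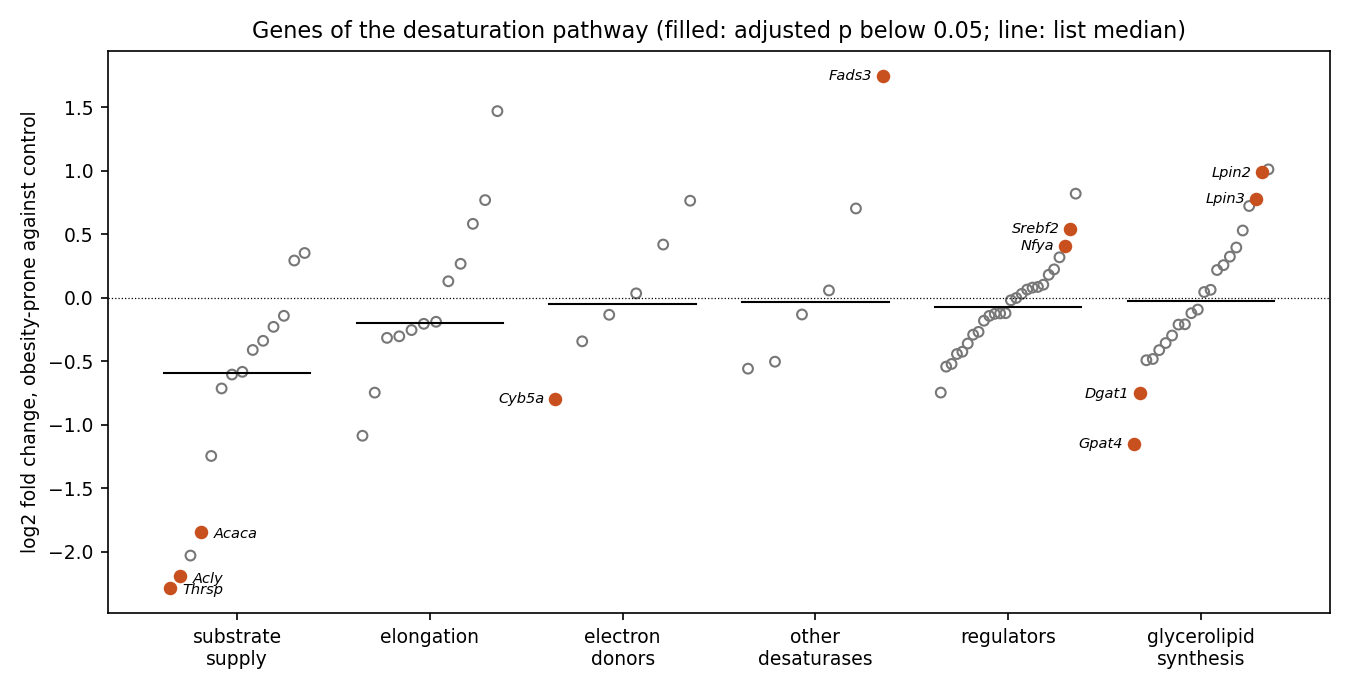
Log2 fold changes of the 86 pathway genes tested, obesity-prone against control, by list, with the list median as a line and called genes filled and named. The list of substrate supply lay lowest (median -0.59), and the called genes ran from Thrsp at -2.28 to Fads3 at 1.74.

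In obesity-resistant against control libraries 0 of 86 pathway genes were called by edgeR, against 0.142% of all genes, and 29 had an unadjusted p below 0.05, as did 3540 of all 19676 genes. DESeq2 called 12, and 5.91% of all genes. With the replicate block 7 were called, beside 1.94% of all genes, namely Cyb5a, Slc25a1, Acly, Fasn and Thrsp lower and Cyb5r1 and Lpin2 higher. The median of the substrate supply list was -0.65. Acly had a log2 fold change of -2.15 (adjusted p = 0.0773) and Lpin2 of 0.65 (adjusted p = 0.0532). Without control replicate 4 the count was 15, beside 4.42% of all genes. The replicate block also keeps that library out of the fold changes, so this alternative and the block are not independent.

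Between obesity-prone and obesity-resistant libraries 0 of 86 pathway genes were called by edgeR, as were 0% of all genes tested, and 12 had an unadjusted p below 0.05, as did 3030 of all 19676 genes, a larger share. DESeq2 called 5, beside 3.33% of all genes, and without obesity-prone replicate 2 edgeR called 6, beside 4.31%. The log2 fold changes of Acly, Acaca and Srebf1 were -0.05 ± 0.45, -0.09 ± 0.48 and 0.04 ± 0.24, beside 1.96 ± 0.56 for Scd1 and 1.54 ± 0.46 for Scd2. Other genes of lipid synthesis lay farther from 0 in either direction. Fasn had 0.73 ± 0.64, Slc25a1 0.39 ± 0.37, Thrsp -0.42 ± 0.49 and Elovl6 -1.09 ± 0.46.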

How the data were processed

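Total RNA of brown adipose tissue was sequenced in 10 libraries. Mapping to reference genes used Bowtie2 2.2.5 and quantification RSEM 1.2.12, per the labels' protocols. The submitters' processing notes name HISAT2 2.0.4 and GRCm38.p6. The authors deposited RSEM expected counts, which are not normalised, and FPKM, which is scaled for transcript length and depth. How shared reads were split beyond RSEM, the strand setting and the annotation release are not given in the sources used here. The 6 columns of group means were not used, and 30.4% of counts were not whole.

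Expected counts were rounded and fitted in edgeR 4.0.16 (R 4.3.3) with TMM factors, filterByExpr (minimum count 10) and the quasi-likelihood test, robust, with all 10 libraries and their 3 groups in one model (7 residual degrees of freedom). P-values were adjusted by Benjamini-Hochberg over 19676 genes, with a threshold of 0.05. Depth was 35583997 to 37327770 counts per library, and genes with few counts, such as Scd3 and Scd4, are the least precise. Alternatives tried included RLE or upper-quartile factors, DESeq2 1.42.0, other filters, limma 3.58.1 on log2(FPKM + 0.1, 0.5 or 1), fits of 2 groups, the replicate block and leaving out each library. The fit was tested on simulated data.

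The members, lists and tests were chosen with earlier results of these data known. Named genes were the members, the 5 genes with the highest r for each, called genes of each list (up to 6, else the 2 with the highest mean CPM), and genes next to the members; 1 gene that the rule names is not reported here. Coordinates are RefSeq's, and coding sequences GENCODE M21's, aligned with MAFFT 7.526. For obesity-resistant and control libraries the 3 same-numbered pairs had weakly correlated deviations (0.121 to 0.187). All were above 0.1, so blocked values stand beside that comparison, although a pairing by number is not established. Differently numbered pairs of these groups ran from -0.331 to 0.254, and same-numbered control and obesity-prone pairs from -0.146 to -0.086. The labels do not say what the numbers mark, and over the 9 pairs of all groups 4 were above 0.1.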

Additional observations from a re-analysis of the deposited data

Results flagged for a closer look

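Control replicate 4 lay apart from the other controls for 4 of 37 genes examined. Scd3 was at 0.632 CPM there and at 0.0841 to 0.175 CPM in the others. Slc25a30 was at 9.72 against 7.52 to 7.88 CPM, Tnfaip8l1 at 3.16 against 1.73 to 1.94 CPM and Fn3krp at 23.3 against 30.2 to 31.6 CPM. In each the gap to the nearest library, at 0.835 to 0.855 of the range of the 4 libraries, exceeded Dixon's critical value, which chance does in about 1 in 20 groups. Slc25a30 and Tnfaip8l1 were named because they followed Scd3 over the same libraries, and Fn3krp because it followed Scd4.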

How the results depend on the processing

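Of the member folds and pathway counts under alternatives other than leaving out 1 library, 136 stayed, 18 moved and 8 passed the threshold. Member folds stayed if they shifted by less than the SD of log2 CPM within groups. In obesity-resistant against control they stayed if they kept their sign and side of the threshold. Pathway counts stayed if they kept within a set ratio of the main count. The small folds of Scd1 and Scd2 in obesity-prone against control changed sign, Scd1 to -0.19 without obesity-prone 3 and control 4 and Scd2 to 0.081 without obesity-prone 2. On log2 FPKM with 0.5 and 1 added, obesity-prone against control was 1.58 and 1.06 for Scd3 and -0.20 and -0.12 for Scd4, where the constant is near or above their levels. Leaving out 1 library gave -0.92 to 0.081 for Scd2 in that comparison and 0.83 to 1.84 in obesity-prone against obesity-resistant, and without obesity-prone 3 and control 4 together (chosen after seeing the data) -1.11 and 0.83. For obesity-resistant against control, Scd1, Scd2 and Scd3 passed with DESeq2 (-1.71, -1.76 and 2.77), Scd1 and Scd2 with the replicate block (-1.97 and -1.88), Scd2 in a fit of 2 groups (-1.76), and Scd2 and Scd3 without the 2 libraries named (-1.93 and 3.66). Leaving out 1 library gave -1.94 to -1.55 for Scd2 and 2.33 to 3.65 for Scd3 there. The 11 pathway genes called in obesity-prone libraries were 25 with DESeq2 (beside 17.3% of all genes) and 6 with no filter (2.84%). They were 1 with 2 groups (0.344%), 19 without both libraries (13.3%) and 1 to 25 without 1 library (0.389% to 15.6%). With the replicate block the count was 15 (8.04%), of which 9 were among the 11. In obesity-resistant against control libraries the 0 became 12 with DESeq2 (beside 5.91% of all genes), 1 with upper-quartile factors (0.193%) and 2 with no filter (0.232%). It became 1 with 1 CPM in 3 libraries (0.435%), 5 with 2 groups (2.05%) and 7 with the replicate block (1.94%). Without both libraries it was 25 (11.1%), and without 1 library 0 to 15 (0.0148% to 4.42%). Between the diet groups it became 5 with DESeq2 (3.33%) and 0 to 6 without 1 library (0% to 4.31%). The causes were not tested. The block changed no other call of a member. Depth limits Scd3 in control and Scd4 in all libraries, which hold few counts.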
